A study of Mus musculus with 13 samples.

Results

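Nephron progenitors are mesenchymal cells of the developing kidney cap that renew under the transcription factor Six2 and, on a Wnt signal, turn into the epithelium of the nephron. Podocytes are one of the end points of that path: they wrap the glomerular capillaries with foot processes joined by slit diaphragms, which hold back plasma protein, and they lay down a basement membrane with the capillary endothelium. Open chromatin marks promoters and the distal elements, called enhancers, that help to set which genes a cell uses.

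The comparison was between nuclei of the nephron progenitor cluster (NP) and nuclei of the podocyte cluster (Podo) in whole mouse kidneys at P0, profiled by single nuclei ATAC sequencing (snATAC-seq). Members were all nuclei that carried either name in the deposited annotation in the 2 P0 samples, 2706 of the 11429 P0 nuclei and of 28316 nuclei in the series. Sample 1 held 1032 NP and 307 Podo nuclei, and sample 2 held 1005 and 362. The samples were labelled P0, while the labelled nuclei protocol gives kidneys of 1-day-old mice, both kidneys being taken. The labels give no strain, treatment or allele for them, and do not say how many animals went into each. The series also holds 1 sample at P21 and 2 at P56, grouped as adult, which were used here only to follow the P0 differences.

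The data are open calls, that is, a peak is open in a nucleus where at least one fragment lay in it. In the 2 samples NP summed to 6408014 and 7649123 open calls and Podo to 1289008 and 1834632. The NP nuclei were deeper, with a median of 5897.5 and 7226 open peaks per nucleus against 3387 and 4506.5 in Podo. The P0 libraries shared 52 barcodes over all nuclei, of which 1 was among NP and Podo nuclei. Because the clusters were themselves made from open chromatin of the same nuclei, p-values below rank peaks and genes and are no test of whether the clusters exist. The NP-over-Podo difference varied between the samples no more than counting error allows (SD of the sample difference over its counting error, 0.917 for peaks and 0.968 for genes), so that p-values mostly reflect depth and say little about variation between animals.

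Marker genes of both labels were read by gene activity, the number of open calls in peaks over a gene body and 2 kb upstream. The authors named the clusters from accessibility at known marker genes in these same nuclei. The order of such markers was therefore largely fixed beforehand and is no independent check of the labels. All 8 NP markers (Six2, Cited1, Osr1, Eya1, Meox1, Uncx, Crym and Spock2) had higher activity in NP and the Podo markers Nphs1, Podxl, Synpo, Wt1, Ptpro and Magi2 had higher activity in Podo. For Wt1 this held relative to depth, and its order turned when sums were scaled by the number of nuclei (log2 fold change 0.08). Under that scaling Magi2 was at -0.02 and no longer called (adjusted p 0.824 with edgeR).

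Of the 16 distal peaks named below, 4 are shown first, since the rest turns on elements of this kind. They rank 1 and 3 towards NP and 1 and 2 towards Podo, and the NP peak of rank 2, nearest Enc1, is not shown because much of its window is a run of C and T. Each line gives 200 bases of the plus strand of mm10 (GRCm38), chosen within the peak for holding the most matches to the 18 short motifs searched. Capitals mark those matches. The first pair lay near Bmper and Six2 and were open mainly in NP.
NP Bmper distal, chr9:23041675-23041874: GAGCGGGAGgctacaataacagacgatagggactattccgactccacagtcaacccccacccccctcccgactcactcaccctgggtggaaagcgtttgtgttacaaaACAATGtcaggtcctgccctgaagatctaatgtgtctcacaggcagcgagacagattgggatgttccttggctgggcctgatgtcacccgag
NP Six2 distal, chr17:85748151-85748350: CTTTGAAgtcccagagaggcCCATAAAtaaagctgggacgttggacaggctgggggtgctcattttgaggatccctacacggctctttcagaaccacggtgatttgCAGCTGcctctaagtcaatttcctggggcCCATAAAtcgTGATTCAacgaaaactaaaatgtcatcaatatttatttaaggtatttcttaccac

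The next pair lay near Foxi1 and Pdia6 and were open mainly in Podo.
Podo Foxi1 distal, chr11:34181598-34181797: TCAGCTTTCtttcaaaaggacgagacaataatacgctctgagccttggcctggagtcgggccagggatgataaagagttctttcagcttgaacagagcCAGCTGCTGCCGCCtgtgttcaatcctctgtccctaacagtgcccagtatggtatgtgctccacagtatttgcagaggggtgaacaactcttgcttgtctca
Podo Pdia6 distal, chr12:17251111-17251310: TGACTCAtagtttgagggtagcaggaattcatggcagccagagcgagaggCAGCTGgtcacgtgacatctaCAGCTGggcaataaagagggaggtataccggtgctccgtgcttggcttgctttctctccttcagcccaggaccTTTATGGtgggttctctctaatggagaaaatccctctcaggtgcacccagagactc

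In the Six2 window the capitals were, in order, a TCF/LEF match, a Hox match, an E-box, a second Hox match and an AP-1 match. The Pdia6 window held an AP-1 match, a pair of E-boxes and a Hox match. The Foxi1 window held a Six2-type match, then an E-box and a CTCF match side by side. The Bmper window held a WT1 and a SOX match. A match is a description of the letters, and binding was not measured.

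Across the genome, a large share of the tested peaks differed between NP and Podo. Of 87195 peaks that passed the filter on low counts, 21468 were called higher in NP (24.6%) and 19373 higher in Podo (22.2%), 46.8% in either direction (edgeR quasi-likelihood test with sample as block, Benjamini-Hochberg adjusted at 0.05). The NP calls had a median log2 fold change of 2.09, against -1.37 for the Podo calls, and 19460 and 11944 of them changed at least 2-fold. Of these, 11524 and 6343 reached a log2 fold change of 2 in size. Medians over calls depend on which changes can pass the test at the depth of each sum, and the Podo sums were shallower. The sign was the same in both samples for 99.9% of the NP calls and 99.6% of the Podo calls, beside 80.2% of all tested peaks. The calls were made in these same samples, which nearly fixes this agreement. A peak called higher in NP was open in a median of 5.06% of NP and 0.715% of Podo nuclei, and one called higher in Podo in 3.15% and 6.69%. DESeq2 called fewer, 6042 peaks higher in NP and 8850 higher in Podo. Scaling by the number of nuclei in place of depth moved the median log2 fold change of all peaks by 0.64 towards NP and the NP share of the calls from 52.6% to 82.7%. Under that scaling 24.4% of the Podo calls changed sign. The shift is too small to turn a call of at least 2-fold, and none of those turned.

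Distal peaks, which overlap no exon, intron or 5 kb upstream of a transcript, were more often higher in NP than in Podo. Of 22374 distal peaks tested, 7159 were called higher in NP (32%) and 3654 higher in Podo (16.3%). Distal peaks made up 33.3% of the NP calls and 18.9% of the Podo calls, beside 25.7% of all tested peaks, and this order held under each of the 9 settings tried. The gap was narrower when scaled by the number of nuclei (27.9% and 25.9%) and among calls of at least 2-fold (34.7% and 25.8%). Peaks over 50 kb from a protein-coding start were 41.2% of the NP calls, 21.9% of the Podo calls and 28.2% of all. Introns held 43.5% of the NP calls and 36.9% of the Podo calls, and exons 18.5% and 40.5%. Peaks within 1 kb of a protein-coding start were 7.25% of the NP calls and 31.0% of the Podo calls, but this order turned on scaling by the number of nuclei, where they were 18% and 5.37%. Among calls of at least 2-fold they were 4.58% and 5.4%, with introns at 45.0% and 52.7%, exons at 15.6% and 16.9%, and peaks over 50 kb from a start at 43.1% and 31.4%. The distal calls themselves were alike in base composition, with a median GC content of 48.3% in NP and 48.7% in Podo, and had median widths of 643 and 595 bp.

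The distal calls of the 2 clusters held different motif letters. Motifs were searched on both strands in the central 300 bp, and matches of different motifs were counted apart and may share bases. The letters GAAANCTGA, read by Six2 and its relatives, were in 3.90% of distal peaks called higher in NP, 1.89% of those called higher in Podo and 2.95% of all distal peaks tested. TTTATGG, a motif of Hox9 to Hox11 proteins, which pattern the kidney mesenchyme, was in 7.26%, 3.79% and 5.28%. CTTTGAA of the TCF/LEF proteins that carry Wnt signals into the nucleus was in 9.41%, 7.36% and 8.07%, an order that turned with nuclei thinned to 1000 open peaks.

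In the distal peaks higher in Podo, the E-box CAGCTG, read by basic helix-loop-helix factors such as Tcf21, was in 33.9%, beside 19.3% in NP and 23.5% of all. TEAD letters (CATTCCA), read by the partners of Yap, were in 11.1%, 5.96% and 7.21%. The LIM homeobox letters TTAATTA, the kind read by Lmx1b, were in 8.26%, 5.91% and 5.76%. WT1 letters (CTCCCNCNC) were in 19.2%, 16.3% and 16.3%, an order that turned after thinning. Over the 9 settings the Six2-type letters stayed between 3.63% and 5.29% in NP and 1.18% and 1.90% in Podo, and the E-box between 33.8% and 41.4% in Podo and 19.1% and 21.3% in NP. FOX (TGTTTAC), SOX (ACAATG), AP-1 (TGANTCA), SP/KLF (GGGCGGG), NFI (TTGGCA), CTCF (GGNGGCAG), PAX (GTCACGC), ETS (CCGGAAG) and RBPJ letters (GTGGGAA), read by the nuclear partner of Notch, differed by less than 2 percentage points between the 2 sets of distal calls. FOX letters were in 6.56% of Podo and 5.00% of NP distal calls, an order kept in each of the 9 settings. PAX letters were in 1.29% of NP and 0.851% of Podo, an order that turned after thinning. Some gaps were wider under other settings. The NFI letters were in 18.7% of Podo and 14.7% of NP with DESeq2. AP-1 letters were in 11.1% of Podo and 9.08% of NP with equal numbers of nuclei. The RBPJ letters were in 10.2% of NP and 5.91% of Podo distal calls after thinning. No test was run on motifs, since peaks are not replicates.

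**Figure D1:**
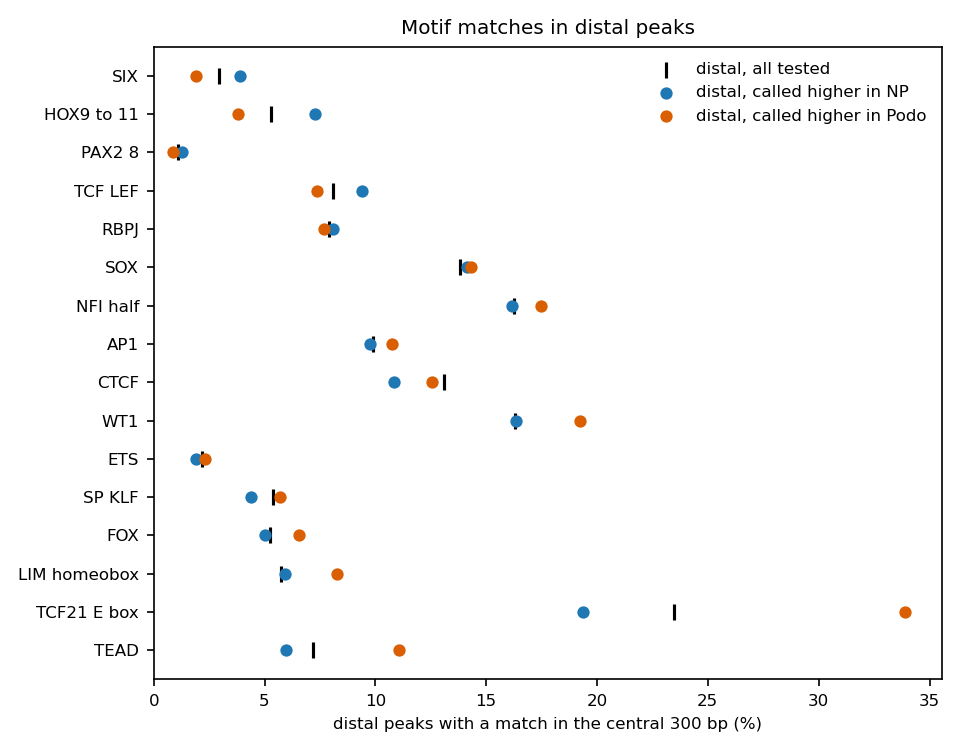
Share of distal peaks with a motif match in their central 300 bp (x axis, percent) for 16 motifs (y axis), in distal peaks called higher in NP (blue), called higher in Podo (orange) and all tested (black bar). The E-box lies furthest to the right in Podo, at 33.9% against 19.3% in NP, and Six2-type and Hox9 to Hox11 letters lie further right in NP.

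The 8 distal peaks named towards NP had the largest difference in mean share of nuclei among called peaks. The choice took 1 per nearest gene and none on chromosome 18. These 8 were open in 30.2% to 48.9% of NP nuclei and in 0.651% to 11.0% of Podo nuclei. The clusters did not overlap at any of them, which the choice of peaks by these values nearly fixes. Each named gene is the one with the nearest protein-coding start, which need not be the target. The peak nearest Bmper, an extracellular regulator of BMP signals, lay at chr9:23041084-23042653, 181 kb upstream of the start. It was open in 44.1% and 44.9% of NP nuclei of samples 1 and 2 and in 4.56% and 4.14% of Podo nuclei (log2 fold change 2.71 ± 0.19 SE, adjusted p 1.49e-40 with edgeR). Both NP values lay above both Podo values.

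The peak 60.4 kb upstream of Six2, the factor that keeps progenitors renewing, lay at chr17:85747869-85749434. It was open in 37.7% and 45.1% of NP nuclei and in 1.30% and 4.42% of Podo nuclei (log2 fold change 3.15 ± 0.22). The log2 ratio was 4.10 in sample 1 and 2.62 in sample 2, from 4 and 16 open Podo nuclei. The peak 60.1 kb upstream of Wnt4, the signal that turns progenitors into epithelium, lay at chr4:137217017-137217842. It was open in 39.1% and 43.3% of NP nuclei and in 4.56% and 4.14% of Podo nuclei (log2 fold change 2.61 ± 0.20). At both peaks NP was the high cluster in each sample.

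The peak nearest Enc1, which encodes an actin-binding protein, was open in 37.2% and 48.1% of NP nuclei and in 3.58% and 2.76% of Podo nuclei. The peak nearest Shb, an adaptor of tyrosine kinases, had the largest log2 fold change of the 8 (3.79 ± 0.26), with 30.2% and 40.8% of NP nuclei against 0.651% and 2.49% of Podo nuclei, that is 2 and 9 nuclei, and log2 ratios of 4.63 and 3.27. The peak nearest Elfn2 had the smallest (1.49 ± 0.16), with 38.3% and 48.9% against 8.79% and 11.0%. The other 2 lay nearest Gm10260 (38.2% and 41.0% against 3.26% and 4.70%) and Itga8, the integrin subunit by which the mesenchyme binds nephronectin (39.0% and 42.3% against 7.17% and 4.14%).

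By the same choice, the 8 distal peaks named towards Podo were open in 23.1% to 44.8% of Podo nuclei and in 0.194% to 11.3% of NP nuclei. The peak nearest Rhpn1 lay at chr15:75697069-75697650, 6.92 kb upstream. It was open in 23.5% and 37.0% of Podo nuclei and in 2 of 1032 and 9 of 1005 NP nuclei (log2 fold change -6.40 ± 0.25, adjusted p 3.19e-134 with edgeR), the largest of the 8. Its log2 ratio was -7.20 in sample 1 and -5.98 in sample 2. The peak nearest Pdia6, a disulfide isomerase, lay at chr12:17250737-17251781, 15.3 kb upstream, and was open in 26.4% and 40.3% of Podo nuclei against 1.07% and 1.49% of NP nuclei (log2 fold change -5.33 ± 0.21). Sample 2 was the higher of the 2 for Podo at both, as it was at all 8.

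The peak 259 kb downstream of the start of Robo2, a Slit receptor, lay at chr16:73647075-73648003. It was open in 41.0% and 44.8% of Podo nuclei and in 10.9% and 11.3% of NP nuclei (log2 fold change -2.58 ± 0.13), the highest NP level of the 8. The peak nearest Foxi1, a transcription factor of intercalated cells, was open in 30.0% and 42.3% of Podo nuclei and in 1.07% and 1.39% of NP nuclei (log2 fold change -5.50 ± 0.21). The peak nearest Man1a2, a mannosidase, had 26.1% and 32.9% against 1.65% and 0.995%. At the last 3, nearest Gm826, Ptchd3 and Gm17651, Podo lay between 23.1% and 37.8% and NP between 3.20% and 7.66%.

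These shares depend on the depth of the nuclei, which was greater in NP and in sample 2. After each nucleus was thinned to 1000 open peaks, which left out 12 to 28 nuclei per sum, the 8 NP peaks were open in 5.08% to 9.26% of NP and 0% to 2.03% of Podo nuclei. The 8 Podo peaks were then open in 5.08% to 12.6% of Podo and 0% to 2.39% of NP nuclei. The 95% Wilson intervals of the unthinned shares, which cover counting error only, spanned at most 6.17 points in NP and 10.9 points in Podo.

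**Figure D2:**
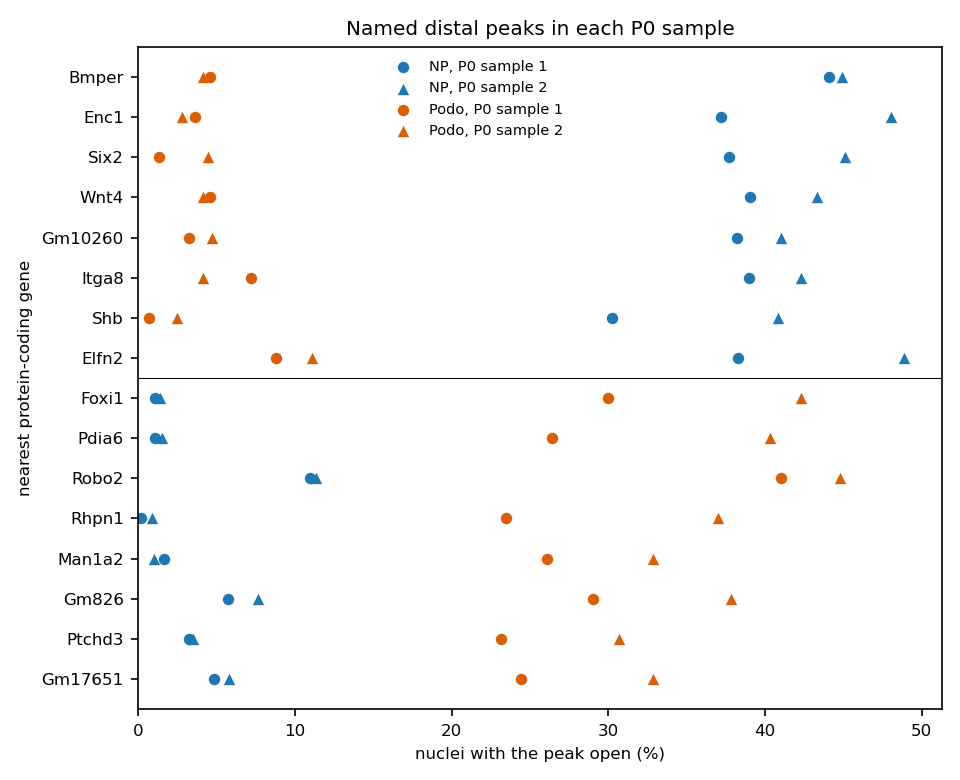
Share of nuclei with the peak open (x axis, percent) for the 8 distal peaks named towards NP (top) and the 8 named towards Podo (bottom), labelled by the nearest protein-coding gene (y axis). Blue marks NP and orange Podo, circles sample 1 and triangles sample 2, and the 2 colours do not overlap in any row.

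Set beside 13 clusters of the P0 samples (PT_out and a single NP_LOH nucleus were left out), 15 of the 16 peaks had their highest mean share in their own cluster. The exception was the Itga8 peak, open in 51.6% of nuclei of the second stromal cluster, 47.2% of endothelial and 42.5% of the first stromal cluster beside 40.6% of NP. The Foxi1 peak was open in 36.1% of Podo and 35.0% of intercalated cell nuclei. The Enc1 peak was open in 34.3% of distal convoluted tubule nuclei, against 42.6% in NP. By contrast, the Rhpn1 peak was open in 30.2% of Podo nuclei and at most 1.58% in any other cluster. The Pdia6 peak had 33.4% and at most 1.86%, and the Shb peak 35.5% in NP and at most 6.29% outside NP. These shares were not tested, and clusters differ in depth and in number of nuclei. The 16 peaks were chosen for a large difference in share between NP and Podo, which favours a high rank of their own cluster. The same count over all distal calls is not given.

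**Figure D3:**
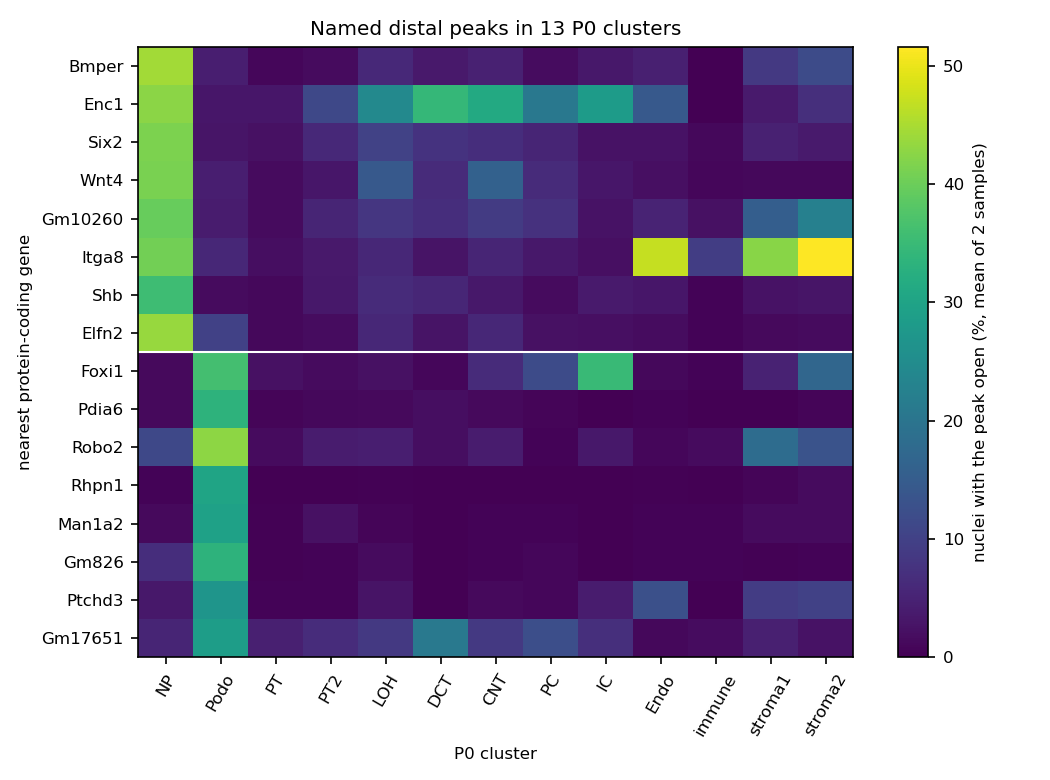
Mean share of nuclei open over the 2 P0 samples (colour, percent) for the 16 named distal peaks (rows, by nearest gene) in 13 clusters (columns). The brightest cell of each row lies in NP or Podo except for the Itga8 peak, which is brightest in the second stromal cluster at 51.6%.

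At the level of genes, the shares called were nearly the same as for peaks, while the changes were smaller. Of 23661 genes tested, 5713 had higher activity in NP (24.1%) and 5421 higher activity in Podo (22.9%), 47.1% in either direction. The median log2 fold change was 0.89 for the NP calls and -0.45 for the Podo calls, and 2392 and 635 of them changed at least 2-fold. DESeq2 called 1959 and 1343. Scaling by the number of nuclei moved the median of all genes by 0.49 towards NP and the NP share of the calls from 51.3% to 94.2%. With it 58.2% of the Podo gene calls changed sign. A shift of this size is too small to turn a call of at least 2-fold, and none of those turned. Changes of genes are therefore given relative to depth, and the calls of each list scaled by nuclei are given beside them.

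**Figure D4:**
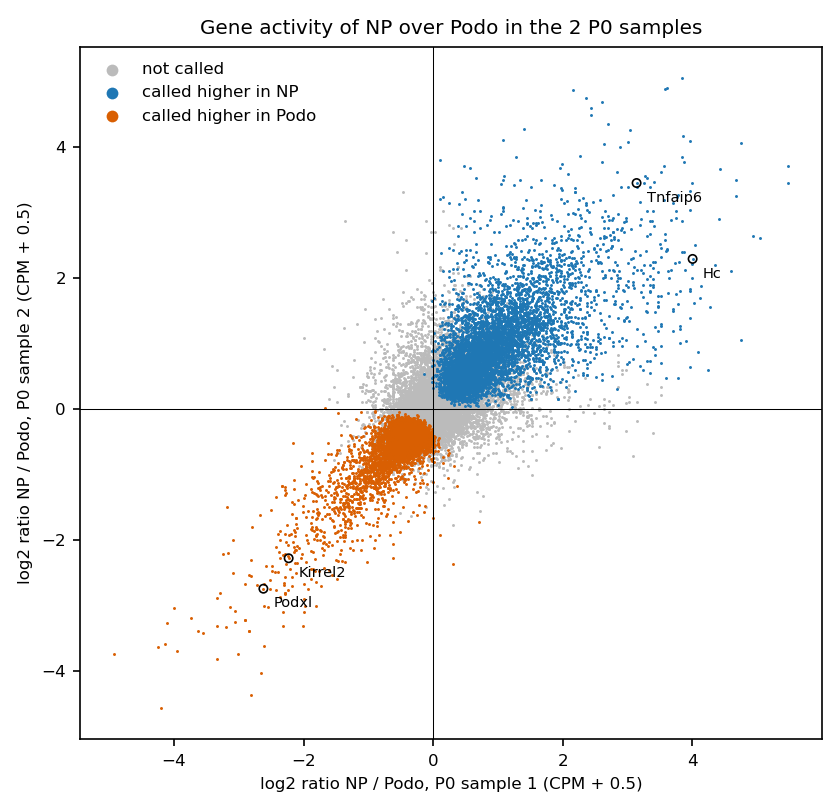
Log2 ratio of gene activity in NP over Podo in P0 sample 1 (x axis) against sample 2 (y axis), from CPM with 0.5 added, for the 23661 genes tested. Points called higher in NP (blue) lie mostly at the upper right, with Tnfaip6 and Hc marked, and those called higher in Podo (orange) at the lower left, with Podxl and Kirrel2 marked.

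Among called protein-coding genes of at least median activity, the 10 with the largest log2 fold change towards NP included none of the classical progenitor regulators. Tnfaip6, which encodes a hyaluronan-binding protein, had 37.1 and 39.4 CPM (open calls scaled to the depth of the sum) in NP and 3.77 and 3.14 in Podo (log2 fold change 3.49 ± 0.28 SE, adjusted p 6.69e-33 with edgeR). Its Podo values rest on 5 and 6 open calls. Hc, complement component C5, had 80.1 and 76.5 in NP against 4.53 and 15.2 in Podo (log2 fold change 2.85 ± 0.17). Prph2, known as a photoreceptor protein, had 40.5 and 40.6 against 2.26 and 8.90 (log2 fold change 2.71 ± 0.23). For both of these the Podo samples stood apart from each other, and the log2 ratio was 4.03 in sample 1 and 2.31 in sample 2 for Hc, and 3.94 and 2.15 for Prph2. The other 7 were Cldn9, a tight junction claudin, Agmo, Atp10b, Caln1, the sulfotransferase Chst5, 4933407L21Rik and Popdc3, with log2 fold changes from 2.64 to 2.19. NP and Podo samples overlapped in none of the 10, which the choice of genes by these values nearly fixes.

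By the same rule, the 10 genes with the largest log2 fold change towards Podo were led by Podxl and Kirrel2. Podxl, the sialomucin that keeps foot processes apart, had 188 and 219 CPM in Podo and 30.1 and 32.3 in NP (log2 fold change -2.71 ± 0.09, adjusted p 8.44e-198 with edgeR). Kirrel2, a nephrin relative, had 92.8 and 86.4 against 19.4 and 17.4 (log2 fold change -2.29 ± 0.13). Kirrel2 lies beside Nphs1, and with peaks shared between genes left out its log2 fold change was -0.47 and no longer called (adjusted p 0.456 with edgeR). Adcy1, an adenylyl cyclase, had 301 and 318 in Podo against 82.7 and 69.4 in NP (log2 fold change -2.05 ± 0.07).

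Col4a3, a chain of the collagen IV of the mature glomerular basement membrane, had 195 and 182 in Podo against 54.2 and 45.8 in NP (log2 fold change -1.93 ± 0.08). Npr3, the clearance receptor of natriuretic peptides, had 173 and 179 against 49.0 and 46.8 (log2 fold change -1.88 ± 0.08). Ddn, which encodes dendrin of the slit diaphragm, had 68.7 and 81.2 against 21 and 20.6 (log2 fold change -1.87 ± 0.13). Nectin4, Mrgprf, Htra1 and Mrnip lay between, at -2.0, -1.96, -1.91 and -1.90. The samples did not overlap for these 10 either, for the same reason.

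Gene lists were read against the 24.1% and 22.9% of all genes called, with all-gene median 0.00. Among 12 nephron progenitor regulators, 11 were higher in NP and none in Podo, with a median log2 fold change of 0.95 (8 and 0 with DESeq2, 6 and 0 after thinning, 12 and 0 scaled by nuclei). Hmga2, a chromatin protein of fetal cells, had 351 and 311 CPM in NP against 101 and 89.0 in Podo (log2 fold change 1.80 ± 0.09). Meox1 had 26.2 and 26.2 against 12.1 and 7.86 (1.45 ± 0.23), Spock2 80.3 and 72.6 against 30.9 and 28.3 (1.37 ± 0.13), and Six2 itself, through 1 peak, 59.3 and 57.1 against 18.1 and 26.2 (1.34 ± 0.15). Cited1, another marker of the self-renewing cap, differed less (0.45 ± 0.17) and was not called by DESeq2 (adjusted p 0.396), and Traf1 did not pass the test (0.31 ± 0.14, adjusted p 0.0575 with edgeR).

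Of 12 genes of nephron commitment and the renal vesicle, the first epithelial stage, 8 were higher in NP and 1 in Podo. Wnt4 had 76.5 and 71.9 in NP against 25.7 and 30.4 in Podo (log2 fold change 1.38 ± 0.13), followed by the cadherin Cdh6 (0.92 ± 0.11) and Ccnd1 (0.62 ± 0.10). Lef1 was the member higher in Podo (-0.31 ± 0.09), and it turned to 0.18 when scaled by nuclei. DESeq2 called 3 of the 12 higher in NP and none in Podo, and 3 of 11 and none were called after thinning. Scaled by nuclei, 10 were higher in NP and none in Podo, and Lhx1 also turned, from -0.26 to 0.23, called at neither value.

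Podocyte lists went the other way. Of 12 podocyte transcription factors 9 were higher in Podo and none in NP, with a median log2 fold change of -0.67. DESeq2 called 7 higher in Podo, and 5 were called after thinning. Tcf21 had 105 and 90.6 in Podo against 44.0 and 39.0 in NP (log2 fold change -1.23 ± 0.10). Zbtb7c was at -1.04 ± 0.06, Dach1 at -0.89 ± 0.07 and Wt1, which is used in both cell types, at -0.41 ± 0.08. Lmx1b did not pass the test (-0.14 ± 0.07). Under scaling by nuclei 5 of the 12 were higher in Podo and 3 higher in NP, and the signs of Wt1, Foxd2, Foxc1 and Lmx1b turned, the last to 0.35.

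Of 13 slit diaphragm genes 9 were higher in Podo and 2 in NP (7 and 2 with DESeq2). Nphs1, which encodes nephrin, had 130 and 127 CPM in Podo against 38.9 and 34.5 in NP (log2 fold change -1.81 ± 0.10). The junction protein gene Tjp1 was at -0.91 ± 0.07 and the large cadherin Fat1 at -0.67 ± 0.07, while Magi1 (0.34 ± 0.07) and Kirrel3 (0.38 ± 0.08) were the 2 higher in NP. Of 14 foot process and actin genes 10 were higher in Podo and none in NP (9 and 0 with DESeq2), led after Podxl by Synpo (-1.42 ± 0.07), Arhgap24 (-1.17 ± 0.06) and Ptpro (-1.07 ± 0.07). Scaled by nuclei, 5 slit diaphragm genes were higher in Podo and 5 in NP, with a median of -0.02, and 8 foot process genes were higher in Podo and 4 in NP. The signs of Kirrel, Plce1, Itgav and Ezr turned.

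The 15 genes of the glomerular basement membrane and its receptors were split, with 7 higher in Podo and 4 in NP (5 and 2 with DESeq2, 4 and 1 after thinning). The members higher in Podo included Col4a3, Col4a4 (-1.22 ± 0.11), the laminin chain Lama5 (-0.91 ± 0.08) and the integrin subunit Itga3 (-0.68 ± 0.08). The 4 higher in NP were Col4a1 (0.47 ± 0.08), Col4a2 (0.52 ± 0.08), Lama1 (0.55 ± 0.11) and Lamb1 (0.45 ± 0.09), the collagen and laminin chains of early basement membranes. DESeq2 called neither Lama1 (adjusted p 0.0792) nor Lamb1 (0.0596), and after thinning only Col4a2 of the 4 was called. The list's median, -0.25, turned to 0.24 when scaled by nuclei, where 4 were higher in Podo and 7 in NP. The signs of Agrn, Lamb2, Cd151, Itgb1 and Col4a5 turned. Of 14 secreted and surface proteins of podocytes 10 were higher in Podo and 3 in NP (9 and 1 with DESeq2, 5 and 0 after thinning). R3hdml led with 77.7 and 61.8 in Podo against 14.3 and 10.5 in NP (log2 fold change -2.49 ± 0.15), followed by Htra1, Dpp4 (-1.10 ± 0.10) and Thsd7a (-1.06 ± 0.13). Pla2r1 (0.66 ± 0.12), Sema3a (0.50 ± 0.13) and Angpt1 (0.44 ± 0.14) were higher in NP, of which DESeq2 called Pla2r1 alone and none was called after thinning, and Vegfa was at -0.04 ± 0.10. Scaled by nuclei, 7 were higher in Podo and 4 in NP, and the signs of Plat, Sema3g and Vegfa turned (Vegfa to 0.45).

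**Figure D5:**
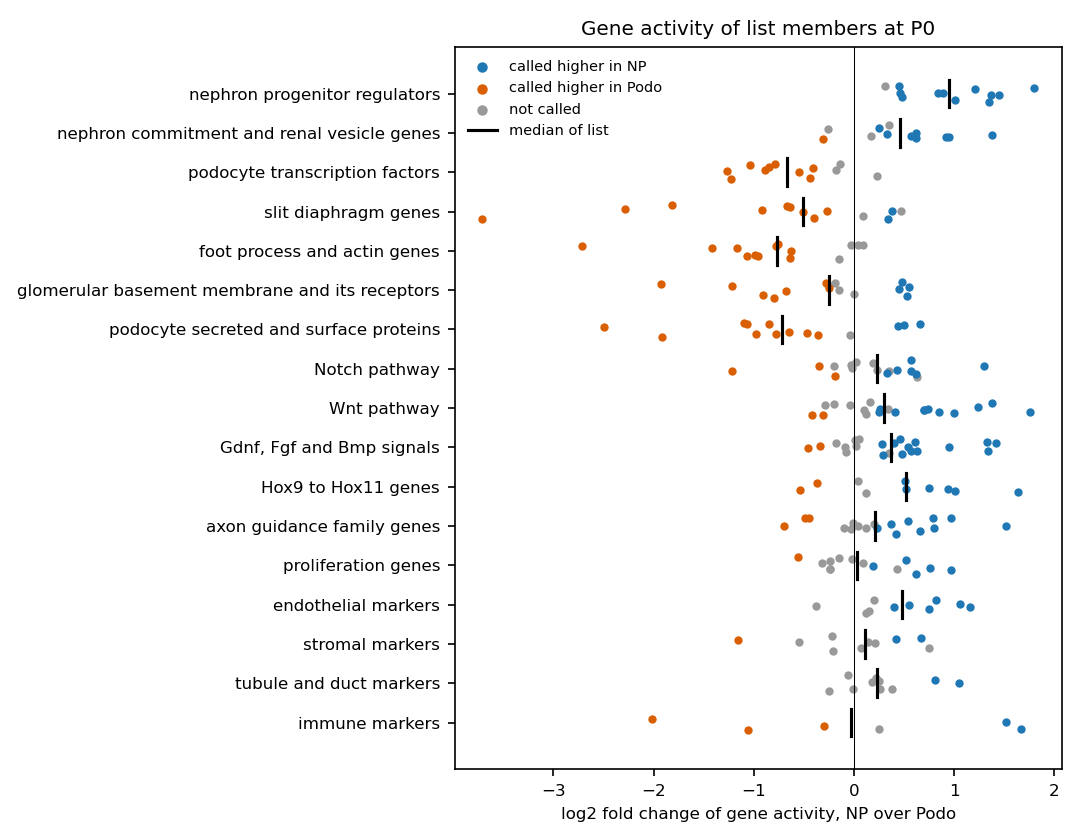
Log2 fold change of gene activity, NP over Podo (x axis), of each tested member of the 17 gene lists (y axis), in blue where called higher in NP, orange where called higher in Podo and grey where not called, with a black bar at the list median. Progenitor regulators centre at 0.95 and the podocyte lists lie mostly to the left of 0 relative to depth (the basement membrane median turns to 0.24 when scaled by nuclei).

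Signalling lists leaned to NP. Of 20 Wnt pathway genes 11 were higher in NP and 2 in Podo (5 and 0 both with DESeq2 and after thinning, 18 and 0 scaled by nuclei). These included the enhancer of Wnt signals Rspo1, with 101 and 94.9 CPM in NP against 30.2 and 27.8 in Podo (log2 fold change 1.76 ± 0.13), Wnt4, the R-spondin receptor Lgr5 (1.24 ± 0.12) and the inhibitor Dkk1 (1.00 ± 0.27), which was not called by DESeq2 (adjusted p 0.171). Of 22 genes of Gdnf, Fgf and Bmp signals 13 were higher in NP and 2 in Podo (7 and 0 with DESeq2, 5 and 0 after thinning, 20 and 0 scaled by nuclei). Fgf1 was at 1.42 ± 0.09, the BMP antagonist Grem1 at 1.34 ± 0.25, Gdnf, which draws in the ureteric bud, at 1.32 ± 0.14, and the inhibitory Smad7 at 0.95 ± 0.08. Lef1, Lrp5, Bmp7 and Bmpr1a, the members higher in Podo in these lists, all turned under scaling by nuclei.

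The Notch pathway, which directs cells to proximal fates and podocytes, had 6 of 17 genes higher in NP and 3 in Podo (3 and 1 with DESeq2, 1 and 2 after thinning). Scaled by nuclei, 13 were higher in NP and 1 in Podo, and the median moved from 0.22 to 0.72. The Notch target Heyl was higher in NP (1.30 ± 0.11), with Dll1 (0.61 ± 0.17, DESeq2 adjusted p 0.182) and Notch1 (0.57 ± 0.08). The glycosyltransferase Mfng was higher in Podo (-1.22 ± 0.14), as were Lfng and Notch2 relative to depth only, since both turned under scaling by nuclei. Of 10 Hox9 to Hox11 genes, whose windows share peaks within each cluster, 6 were higher in NP and 2 in Podo (4 and 0 both with DESeq2 and after thinning, 8 and 0 scaled by nuclei). Hoxa11 was at 1.64 ± 0.20, Hoxc11 at 1.00 ± 0.17, Hoxc9 at 0.93 ± 0.12 and Hoxd11 at 0.74 ± 0.10. The 2 higher in Podo were Hoxd10 (-0.54 ± 0.13) and Hoxa10, which turned under scaling by nuclei. Neither was called by DESeq2 (adjusted p 0.198 and 0.209), after thinning or when scaled by nuclei.

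Of 18 axon guidance family genes 9 were higher in NP and 3 in Podo (5 and 5 with start windows only, 7 and 1 with DESeq2 and after thinning, 15 and 1 scaled by nuclei). The ligand Slit3 had 608 and 558 CPM in NP against 229 and 183 in Podo (log2 fold change 1.52 ± 0.08), and Slit2 was at 0.97 ± 0.10. Their receptor Robo2 was higher in Podo, with 248 and 234 against 165 and 134 (-0.70 ± 0.07), while Efnb1 and Efnb2 turned under scaling by nuclei. Of 14 proliferation genes 5 were higher in NP and 1 in Podo (3 and 5 of 13 with peaks of 1 gene only, 3 and 0 with DESeq2, 10 and 0 scaled by nuclei). The NP members included Ccnd2 (0.96 ± 0.14), Myc (0.76 ± 0.12) and Mycn (0.51 ± 0.11). Cdk1 was higher in Podo (-0.55 ± 0.12). DESeq2 called neither Mycn (adjusted p 0.0754) nor Cdk1 (0.0906), and Mki67 and Top2a did not pass the test (-0.15 ± 0.15 and 0.09 ± 0.17). Mki67 turned to 0.34 when scaled by nuclei.

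Markers of other cell types were not at 0 in either cluster. Of 10 endothelial markers 6 were higher in NP and none in Podo (1 and 0 with DESeq2, 8 and 0 scaled by nuclei), their summed activity being 304 to 310 CPM in NP and 238 to 240 in Podo. Of 10 stromal markers 2 were higher in NP and 1, Col1a2 (-1.16 ± 0.20), in Podo, with sums of 334 to 375 and 304 to 317. Of 10 tubule and duct markers tested, of 12 listed, 2 were higher in NP, Lrp2 (1.05 ± 0.12) and Umod (0.81 ± 0.28, with 0.24 in sample 1 and 1.44 in sample 2), with sums of 261 to 270 and 190 to 230. Of 6 immune markers tested, of 8 listed, Cd74 (1.66 ± 0.26) and Ptprc (1.51 ± 0.39) were higher in NP. C1qa (-2.01 ± 0.50, from 10 and 11 open calls in Podo), Csf1r (-1.06 ± 0.19) and Cx3cr1 (-0.30 ± 0.07, turning under scaling by nuclei) were higher in Podo. Umod, Ptprc, C1qa and Cx3cr1 were not called by DESeq2 (adjusted p 0.299, 0.103, 0.0752 and 0.0857). Scaled by nuclei, 7 stromal markers were higher in NP and 1 in Podo, 8 tubule and duct markers in NP and none in Podo, and 4 immune markers in NP and 2 in Podo. Gene activity counts any open peak over a gene, and the part of other cells in these values was not tested.

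Distal and intronic peaks were also counted by their nearest protein-coding start, and the genes with the most calls are given. Of all 56005 such peaks tested, 29.5% were called higher in NP and 19.3% higher in Podo. Auts2 had 34 of 85 tested peaks higher in NP and 16 higher in Podo. Sall1, a zinc finger factor of the progenitors, had 30 of 49 higher in NP and 3 in Podo, 29 of the 30 being distal and the farthest 646 kb from the start. Its gene activity was at 0.48 ± 0.09. Kif26b, a kinesin needed for the cap mesenchyme, had 26 of 42 higher in NP and none in Podo, with gene activity at 1.46 ± 0.09. Cdh4 and Nav2 had 29 NP peaks each, of 72 and 63, with 12 and 6 higher in Podo. Their gene activity was at 0.23 ± 0.07 and 0.74 ± 0.07.

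Towards Podo, Srgap1, a Slit-Robo GTPase activating protein, had 28 of 35 peaks higher in Podo and 1 in NP, and gene activity at -1.52 ± 0.06. Zbtb7c had 27 of 47 and 1 in NP. Agap1 had 20 of 46 and 5 in NP. At Gse1 and Tenm4 the 2 directions were close to balanced, with 22 Podo against 21 NP peaks of 76 and 21 against 23 of 76, and their gene activity was at 0.01 ± 0.06 and 0.31 ± 0.07. Genes with long introns or wide flanks hold more tested peaks, so these counts are given with their totals, and the genes were chosen by number, not by share.

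The same contrast was read in the 3 adult samples, which hold 195 nuclei named NP and 243 named Podo. Fewer features passed the filter there, 6524 peaks and 10716 genes. Of the peaks 486 were called higher in NP (7.45%) and 573 higher in Podo (8.78%), and of the genes 1361 (12.7%) and 1073 (10%). Genes called at P0 kept their direction in 77.1% of the 1620 NP calls and 68.4% of the 4217 Podo calls that could be tested, and in 92.2% and 91.5% of those of at least 2-fold. Peaks did so in 93.0% of the 158 NP calls and 58.3% of the 4723 Podo calls that could be tested (98.4% and 87.5% at 2-fold or more), with a median adult log2 fold change of -0.07 for the Podo calls. The adult test holds only genes and peaks with many adult counts, so these shares describe that subset. The clusters were made from the nuclei of all samples together, so agreement in direction is in part built in. The share over all features tested at both ages is not given.

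At the named distal peaks adult nuclei named Podo were still open at the Podo peaks, while adult nuclei named NP were open at few of the NP peaks. In the adult samples summed, the Rhpn1 peak was open in 36.6% of Podo and 0.513% of NP nuclei, the Pdia6 peak in 30.0% and 0.513%, and the Robo2 peak in 29.2% and 2.05%. The Six2 peak was open in 0 of 195 adult NP nuclei, which allows a share of up to 1.54% by counting error alone over the pooled nuclei, and the Shb peak also in 0 of 195. The Bmper peak was open in 2.05% and the Wnt4 peak in 4.62% of adult NP nuclei. The Enc1 peak was the highest of the 8, in 19.0% of adult NP nuclei. The adult NP nuclei had medians of 3291 to 6855 open peaks in the 3 samples. The name NP is that of the deposited annotation at both ages.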

How the data were processed

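Nuclei of mouse kidneys were profiled by snATAC-seq. According to the labels and methods, the authors aligned reads with Cell Ranger ATAC 1.1.0 to mm10 (GRCm38), filtered barcodes, clustered the nuclei of all samples together with SnapATAC and Harmony, named clusters from marker genes, called peaks with MACS2 on nuclei pooled by cell type and merged them. The deposited matrix of 28316 nuclei by 300755 peaks is binarized by the authors, so its counts are whole numbers of open calls and are not scaled for depth; 89197 entries stored as 0 were read as closed.

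Open calls were summed per sample and cluster, so a sum is the number of nuclei with the peak open. Sums were fitted in R 4.3.3 with edgeR 4.0.16 (low sums removed by filterByExpr at min.count 10 and min.total.count 15, TMM scaling, quasi-likelihood F test with sample as block, Benjamini-Hochberg adjustment over all features at 0.05). With 2 samples 1 residual degree of freedom remains, and the spread is estimated across features. That spread was very small, with a common dispersion of 9.77e-05 for peaks and for genes. The blocked samples are the 2 libraries from which both clusters come. Each SE was derived from the log2 fold change and its F value. It therefore mostly reflects counting error, and the log2 ratios of the 2 samples can lie further apart than it implies. Gene activity was summed over peaks touching a gene or its 2 kb upstream (GENCODE M21), for protein-coding and long noncoding genes, and a peak may count for more than 1 gene. CPM values use TMM-scaled sums. Elements were assigned in the order exon, intron, promoter (5 kb) and distal, with bedtools 2.31.1. Genome sequence came from GRCm38. Per-sample log2 ratios had 0.5 added. The fit was run on counts simulated at the depths of these sums. It recovered 19% of peaks changed 2-fold and 73% of those changed 4-fold. For genes the shares were 81% and 97%. False calls were 2 of 94 for peaks and 11 of 189 for genes. Far fewer features were changed there than were called in the data. Other steps used Python 3.11.15, numpy 2.4.6, pandas 2.3.3, scipy 1.17.1 and matplotlib 3.10.9.

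Named were the 10 protein-coding genes per direction with the largest log2 fold change among calls with the same sign in both samples and at least median activity, the 8 distal peaks per direction with the largest difference in mean share (1 per nearest gene), the 5 genes per direction with most called peaks, and up to 4 called members of each list with the cell type markers; members outside this rule were named after their values were seen. Chromosome 18 was left out of the choice of distal peaks. The comparison, members and lists were chosen with earlier results of these data known. Alternatives were DESeq2 1.42.0, its size factors, scaling by nuclei, no filter, no replicate block, all 13 clusters in 1 fit, equal numbers of nuclei, thinning to 1000 open peaks, Fisher's exact test over nuclei, each sample left out, other gene windows, 2 kb promoters and whole peaks for motifs. Doublets were not searched for. Cluster and coordinate tables of the scRNA-seq and the snATAC-seq coordinates were not used here. Some list members and motif shares are not reported here.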

Additional observations from a re-analysis of the deposited data

Results flagged for a closer look

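The contrast of NP over Podo was tested between adult and P0 samples in 1 edgeR fit over all features, and the difference was called for 564 of 9442 peaks and 1870 of 14019 genes. Of the 20 genes and 16 distal peaks named for the largest differences, 11 and 10 could be tested, and 6 and 3 were called. Among those higher in NP at P0, 1 of 10 genes and 2 of 8 peaks could be tested. Podxl, Kirrel2, Mrgprf and Npr3 leaned further to Podo in the adult samples, with adult minus P0 differences in log2 fold change of -0.95, -2.0, -3.29 and -2.36 (adjusted p 0.0287, 0.00594, 2.52e-06 and 4.1e-08 with edgeR). Col4a3 and Htra1 leaned less to Podo, by 1.52 and 0.60 (adjusted p 8.1e-14 and 0.0244 with edgeR), and Col4a3 was no longer called in the adult samples (log2 fold change -0.26 ± 0.15).

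The Itga8 peak, higher in NP at P0, was open in 3 of 195 adult NP nuclei and 27 of 243 adult Podo nuclei (difference -5.79, adjusted p 1.93e-14 with edgeR). The Gm826 peak was open in 0 of 195 adult NP nuclei, which allows a share of up to 1.54% by counting error alone, and 25.9% of adult Podo nuclei. Its fitted difference of -7.17 (adjusted p 0.00164 with edgeR) depends on the prior count and is no bound. The Gm17651 peak was open in 16.4% of adult NP and 21.4% of adult Podo nuclei (difference 2.10, adjusted p 8.78e-06 with edgeR). Each adult sample held 39 to 157 nuclei per cluster, and age and the makeup of the nuclei named NP cannot be told apart in these differences.

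Of 179 list members that could be tested, 69 had a called difference between the ages, and the values of those and other genes named above follow as adult minus P0 differences, all with an adjusted p under 0.05 with edgeR. Some podocyte transcription factors leaned further to Podo in the adult samples, with Tcf21 at -5.03, Wt1 at -3.83, Lmx1b at -3.09, Zbtb7c at -1.97, Dach1 at -1.91 and Foxd2 at -1.49. So did Nphs1 (-2.94), Kirrel (-1.41), Magi2 (-1.15), Plce1 (-0.996), Ptpro (-0.77) and Itgav (-0.62), the secreted or surface proteins Sema3g (-2.64), Plat (-1.60) and Dpp4 (-1.05), and Robo2 (-3.19), Srgap1 (-1.61), Lfng (-1.54) and Efnb2 (-0.84). Differences above 0 were those of Col4a4 (1.25), Lama5 (0.94), Lamb1 (0.91), Arhgap24 (0.90), Lrp5 (0.77), Notch1 (0.71), Cx3cr1 (0.54) and Csf1r (1.41).

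Among genes higher in NP at P0, the adult contrast was lower for Hmga2 (-1.68), Auts2 (-1.59), Slit2 (-1.51), Eya1 (-1.4), Hoxc9 (-1.34), Nav2 (-1.13), Lrp2 (-1.02), Ccnd1 (-0.93) and Tenm4 (-0.73).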

How the results depend on the processing

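The counts depended on the tool and the scaling. Peaks called higher in NP and Podo, 21468 and 19373, were 6042 and 8850 with DESeq2, 42175 and 8845 scaled by nuclei, 13519 and 12299 with equal numbers of nuclei, 2603 and 1903 after thinning, 46415 and 10265 with Fisher's exact test over nuclei, and 24214 and 12225 with no filter. Genes, 5713 and 5421, were 1959 and 1343 with DESeq2, 14516 and 888 scaled by nuclei, 1773 and 1070 after thinning, and 3606 and 3137 with start windows only. Fewer features were tested after thinning (18789 peaks, 17610 genes), with equal numbers of nuclei (50940 peaks) and with start windows (20141 genes). For the other settings the cause was not tested. Without the replicate block peak calls were 21921 and 19276 and gene calls 5256 and 4719. With 1 sample left out no test remains. Of the NP and Podo calls, 21440 to 21467 and 19296 to 19367 peaks and 5699 to 5713 and 5396 to 5421 genes kept their sign. This was nearly fixed, since the calls were made in these same samples. Of the 20 genes and 16 distal peaks named for the largest differences, none reversed under any setting in which it was tested, and Kirrel2 with shared peaks left out was the only one that lost its call. This too was nearly fixed, since they were chosen as large differences and each setting used the same samples. The size of some changes moved. With start windows only, Mrnip was at -0.35, Adcy1 at -0.87 and Tnfaip6 at 2.27, while Mrgprf and Ddn were larger, at -3.12 and -3.25. Atp10b was at 1.53 with shared peaks left out. Of 147 called list members, 62 of them higher in Podo, 18 turned when scaled by nuclei, all of them Podo calls, and 11 of 141 with start windows only. After thinning 65 of 142 lost their call and 2 turned. With DESeq2 none turned and 59 lost their call. Without sample 2 the log2 fold change of Hc was 4.03 and that of Prph2 3.94, and without sample 1 they were 2.31 and 2.15. The peaks nearest Six2, Shb and Rhpn1 were at 4.10, 4.63 and -7.20 without sample 2, and Umod was at 0.24 without sample 2 and 1.44 without sample 1. The Podo sums rest on 307 and 362 nuclei. In counts simulated at the depths of the sums, 19% of peaks changed 2-fold were recovered. How far the Podo depth limits low peaks was not tested apart from this.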
